A study of Mus musculus with 50 samples.

Results

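The genes described here are 9 transcription factors of the GABAergic interneuron lineage, *Dlx1*, *Dlx2*, *Dlx5*, *Dlx6*, *Lhx6*, *Sox6*, *Sp8*, *Nr2f2* and *Npas1*. They were taken as a named list, with gene identifiers matched to symbols by the GENCODE vM21 annotation, and make up 9 of the 55487 genes in the count files. All 9 passed the filter on low counts and were among the 16330 protein-coding genes tested. RNA was sequenced from mouse frontal cortex in 50 libraries, with 5 wild-type (WT) and 5 *Setd1a*+/- libraries at each of embryonic days E14 and E18 and postnatal days P7, P35 and P70, to ask how loss of 1 functional copy of *Setd1a*, which encodes a histone methyltransferase, alters gene expression through development. The *Setd1a*+/- mice carried the tm1d loss-of-function allele throughout the body, and WT mice from the same crosses of *Setd1a*+/- sires with WT dams served as controls. The labels give the strain as C57BL/6NTac, whereas the study's methods describe a mixed C57BL/6NTac and C57BL/6J background and male subjects. Embryonic samples were dissected as frontal brain region and postnatal samples as frontal cortex, and RNA was taken from a part of each homogenate, so that every value below is a mean over all cells of the dissected tissue.

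Interneurons of the cortex are born outside it, in the ganglionic eminences of the ventral forebrain, and reach the cortex by tangential migration before and around birth. The *Dlx* genes encode homeodomain proteins that act in nearly all of these cells as they leave the progenitor zone, and they lie as convergently transcribed pairs, *Dlx1* beside *Dlx2* and *Dlx5* beside *Dlx6*. *Lhx6*, a LIM homeodomain factor, and *Sox6*, an SRY-box factor that acts after it, specify cells from the medial ganglionic eminence, which become somatostatin and parvalbumin interneurons. *Sp8*, a zinc finger factor, and *Nr2f2*, the nuclear receptor COUP-TFII, are enriched in cells from the caudal ganglionic eminence, and *Npas1* encodes a basic helix-loop-helix PAS factor found in subsets of interneurons. The *Dlx* genes and *Sp8* are also expressed in neurons that migrate to the olfactory bulb, *Dlx6* and other *Dlx* genes in striatal neurons, *Sox6* in cortical progenitors and oligodendrocyte precursors, and *Nr2f2* in blood vessels.

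On GRCm38, *Dlx1* (ENSMUSG00000041911, plus strand) spans chr2:71528113-71533981 and *Dlx2* (ENSMUSG00000023391, minus strand) chr2:71543408-71546754. *Dlx6* (ENSMUSG00000029754, plus strand) spans chr6:6863334-6868568 and *Dlx5* (ENSMUSG00000029755, minus strand) chr6:6877805-6882085. *Lhx6* (ENSMUSG00000026890, minus strand) lies at chr2:36081953-36105408 and *Sp8* (ENSMUSG00000048562, plus strand) at chr12:118846329-118852576. The other 3 genes share chromosome 7 with *Setd1a* and lie on its minus strand, *Npas1* (ENSMUSG00000001988) at chr7:16455721-16477728, *Nr2f2* (ENSMUSG00000030551) at chr7:70351944-70366735 and *Sox6* (ENSMUSG00000051910) at chr7:115470872-116038796. Of these, *Sox6* is the nearest to *Setd1a*, at a distance of 11.7 Mb. Counting used no strand and counted a fragment for every gene it overlapped, and 6.21% of the exonic bases of *Dlx1* are shared with its antisense transcript *Dlx1as*, 4.38% of those of *Dlx6* with *Dlx6os2*, 7.46% of those of *Nr2f2* with *B130024G19Rik* and 2.16% of those of *Lhx6* with *Gm27953*.

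The promoters of *Dlx1* and *Dlx2* are shown because these neighbours fell at unequal rates, and that of *Npas1* because this gene rose while they fell. Each is the 300 bases from 250 before to 50 after the start of transcription in RefSeq (GRCm38.p6), written from the gene's own 5′ end, at chr2:71529195-71529494 on the plus strand, chr2:71546705-71547004 on the minus strand and chr7:16476731-16477030 on the minus strand, with matches to GGGCGG (on either strand, so GGGCGG or CCGCCC) in capitals.
*Dlx1*: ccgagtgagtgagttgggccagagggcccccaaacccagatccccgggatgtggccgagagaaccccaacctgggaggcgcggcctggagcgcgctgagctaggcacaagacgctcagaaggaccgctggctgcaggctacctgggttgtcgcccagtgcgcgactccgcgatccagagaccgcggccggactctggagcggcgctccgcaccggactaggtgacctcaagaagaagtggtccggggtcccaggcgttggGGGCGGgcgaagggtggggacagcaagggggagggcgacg
*Dlx2*: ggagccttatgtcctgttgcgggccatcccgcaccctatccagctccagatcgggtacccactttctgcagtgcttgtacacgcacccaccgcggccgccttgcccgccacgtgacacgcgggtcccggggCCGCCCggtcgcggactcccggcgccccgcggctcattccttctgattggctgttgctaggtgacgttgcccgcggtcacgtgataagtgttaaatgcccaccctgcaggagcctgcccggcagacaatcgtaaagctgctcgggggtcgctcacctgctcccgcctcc
*Npas1*: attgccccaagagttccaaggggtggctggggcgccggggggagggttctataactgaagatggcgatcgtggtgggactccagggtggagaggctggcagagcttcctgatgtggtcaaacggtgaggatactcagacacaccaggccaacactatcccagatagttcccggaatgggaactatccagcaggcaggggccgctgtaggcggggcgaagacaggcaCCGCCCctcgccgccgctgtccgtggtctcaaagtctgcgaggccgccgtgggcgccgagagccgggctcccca
Each of these 3 windows held 1 match to GGGCGG, the core of the GC box, which 35.7% of all 32851 promoters of the table held. None of the 3 held TAATT or its reverse complement AATTA, the core recognised by many homeodomain proteins, which 27.03% of all promoters held. Among the promoters not shown, some of those of *Lhx6*, *Sox6* and *Sp8* held it and that of *Nr2f2* did not. The GC content of the 3 windows shown was 69.3%, 66.3% and 64.3%, against a median of 52.7% over all promoters. The RefSeq starts of *Dlx1* and *Npas1* lie inside the GENCODE genes, downstream of their first exonic base. The table matched 7 of the 9 genes by symbol, and *Dlx5* and *Dlx6* were not matched.

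Total counts per library ran from 35507165 to 43907318, and the 9 genes held between 95 and 23406 counts each. Levels are given as CPM, the count relative to the TMM-normalised total of the library, and as RPKM, which also divides by exon length, where genes are compared with each other. The tissue label was checked against 6 markers of cortical excitatory neurons, all of which were present at 1 CPM or more in every group and which summed to between 739 and 2441 CPM. *Setd1a* itself was higher in *Setd1a*+/- libraries at gene level with age as a covariate (log2 fold change 0.10, SE 0.0251, adjusted p = 0.00675, edgeR), with means of 121 CPM in WT and 130.3 CPM in *Setd1a*+/- at E14 and of 82.2 and 80.8 CPM at P70, and a count over all exons, shared in part with an overlapping gene, does not check a label that rests on the deleted part. WT replicate 5 at E14 and WT replicate 2 at E18 held 60159 and 55644 *Xist* counts and 0 and 11 counts of 4 Y-linked genes although the subjects are described as male. WT replicate 2 at P7 differed from its age group in several markers given further on, and the fits were repeated without these 3 libraries.

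Most of the 9 genes were highest before birth. *Dlx1*, *Dlx2*, *Dlx5*, *Dlx6*, *Lhx6*, *Sox6* and *Nr2f2* had their highest mean at E14, *Sp8* at E18 and *Npas1* at P7, and the counts at these ages were again 7, 1 and 1 in *Setd1a*+/- cortex. At P70 the mean WT level was below that at E14 by 19.5-fold for *Dlx2*, 8.76-fold for *Dlx1*, 7.48-fold for *Dlx5*, 6.63-fold for *Nr2f2*, 5.44-fold for *Lhx6*, 5.24-fold for *Sox6*, 4.92-fold for *Sp8* and 2.69-fold for *Dlx6*, with no overlap between the libraries of the 2 ages for these 8 genes, as for 36.8% of all genes tested. The E14 mean of *Nr2f2* was 61.7 CPM in WT, and 40.9 CPM without WT replicate 2. Its place in this order rests on that library. The E18 mean of *Nr2f2* in WT was 47.5 CPM, and 28.4 CPM without WT replicate 4. Whether its WT mean was highest at E14 or at E18 thus rests on single libraries. *Npas1* was 1.72-fold higher at P70 than at E14, with overlapping libraries. In tissue RNA, fewer cells of a type and less RNA per cell cannot be told apart.

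**Figure D1:**
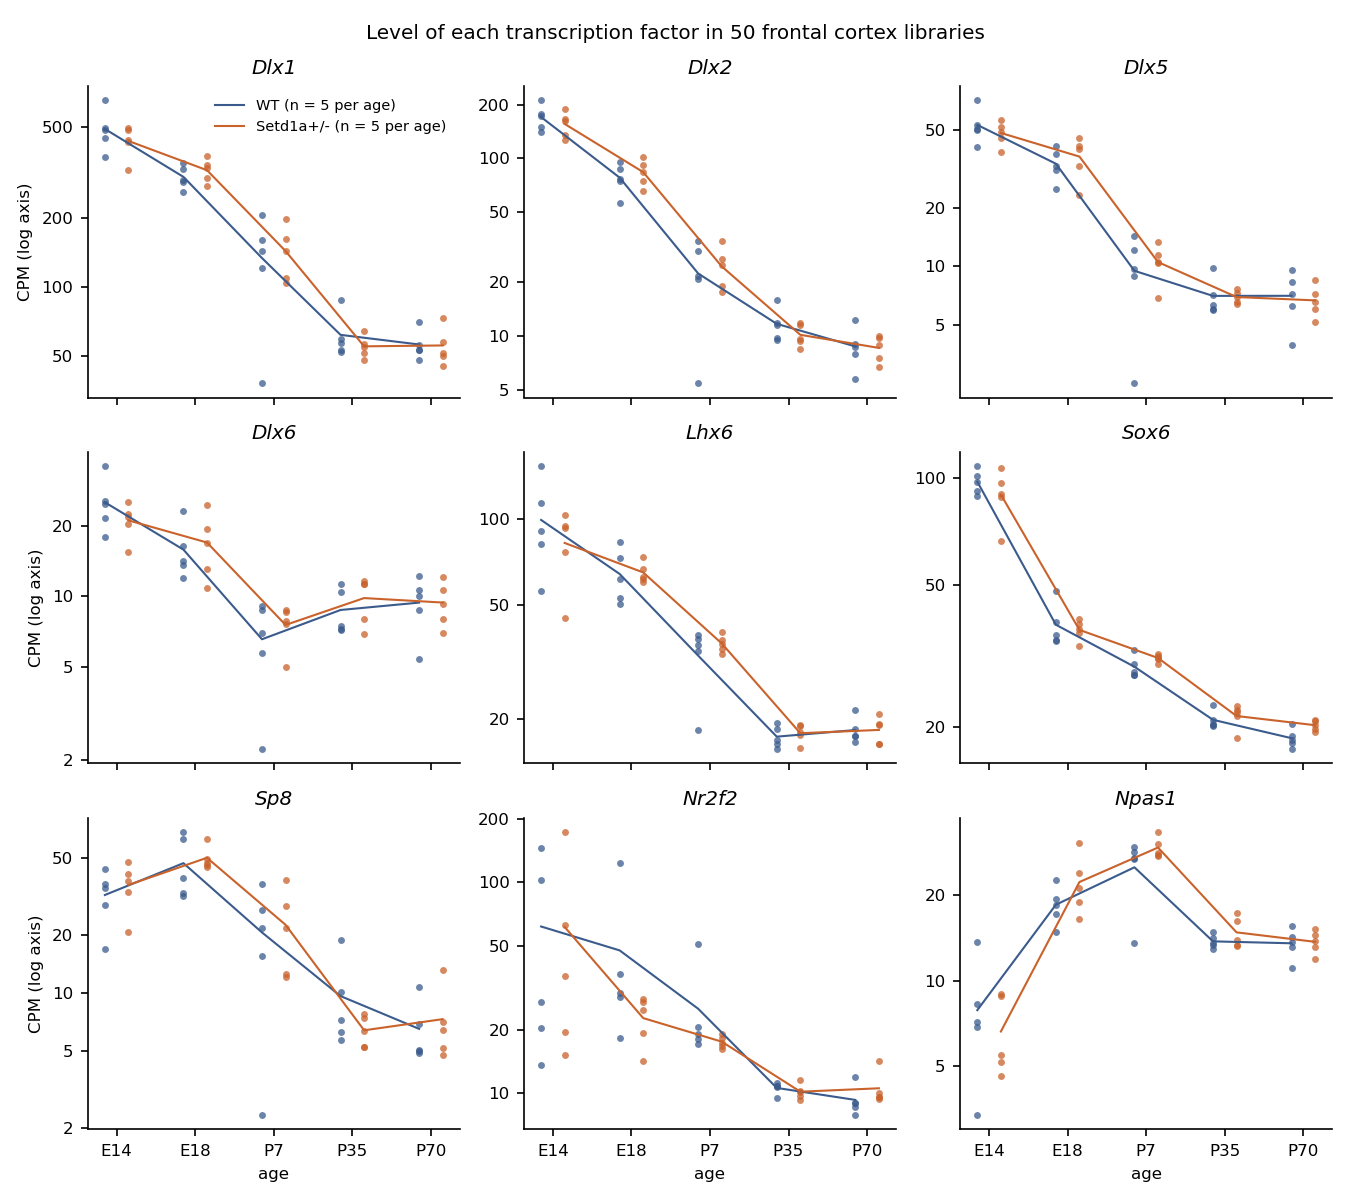
CPM (log axis) of each of the 9 genes in each of the 50 libraries by age, with WT in blue and *Setd1a*+/- in orange, points for single libraries and lines through the means of 5. The WT and *Setd1a*+/- libraries overlap at every age for every gene, and only *Npas1* is higher at P70 than at E14.

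*Dlx1* was the most abundant of the 9 genes at every age in RPKM. In WT libraries its level was 655, 484, 449, 492 and 369.8 CPM at E14 and 293, 347, 286, 259 and 327 CPM at E18, and every E18 library lay below every E14 library. At P7 it was 205.5, 37.8, 121, 160.1 and 143 CPM, where replicate 2 held less than the lowest library at P35, and the mean was 133.5 ± 61.8 CPM (SD, n = 5) with that library and 157.4 ± 35.8 CPM (SD, n = 4) without it. At P35 it was 56.8, 53.1, 59.0, 87.4 and 51.6 CPM, with replicate 4 above the rest, and at P70 52.8, 55.8, 52.6, 70.2 and 48.0 CPM. The log2 fold change was −0.70 (SE 0.218, adjusted p = 0.00492) from E14 to E18, −1.18 (SE 0.221, adjusted p = 8.9e-06) from E18 to P7 and −1.12 (SE 0.222, adjusted p = 2.37e-05) from P7 to P35 (edgeR quasi-likelihood test with Benjamini-Hochberg adjustment over 16330 genes, as for every adjusted p of a gene below).

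*Dlx2*, its neighbour on chromosome 2, differed most between E14 and P70 of the 9. Its WT level was 212, 149, 174, 177 and 140.1 CPM at E14, 74.4, 95.6, 76.1, 56.2 and 86.4 CPM at E18 and 34.1, 5.42, 20.9, 30.1 and 21.8 CPM at P7, with no overlap between these ages. It was 11.6, 9.79, 11.8, 15.9 and 9.54 CPM at P35 and 8.62, 9.07, 5.74, 12.4 and 7.89 CPM at P70, which overlapped. The log2 fold changes of the first 3 steps were −1.13 (SE 0.231, adjusted p = 3.88e-05), −1.79 (SE 0.239, adjusted p = 1.05e-08) and −0.94 (SE 0.245, adjusted p = 0.000816). In *Setd1a*+/- libraries *Dlx2* fell from 156 ± 25.7 CPM (SD, n = 5) at E14 to 8.57 ± 1.42 CPM at P70.

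*Dlx5* and *Dlx6* fell from E14 to E18 and from E18 to P7. *Dlx5* was at 70.8, 49.8, 50.4, 52.9 and 40.7 CPM at E14, 32.5, 37.5, 31.2, 24.9 and 41.3 CPM at E18 and 14.2, 2.52, 8.93, 12.1 and 9.69 CPM at P7, a fall whose steps had log2 fold changes of −0.66 (SE 0.228, adjusted p = 0.0105) and −1.82 (SE 0.24, adjusted p = 7.7e-09). The E14 and E18 libraries overlapped in 1 library each, and those at P7 lay below both. From P7 to P35 its log2 fold change was −0.42 (SE 0.245, adjusted p = 0.125), and −0.67 (adjusted p = 0.00351, edgeR) without WT replicate 2 at P7. *Dlx6* was at 36.2, 21.7, 24.9, 25.7 and 17.9 CPM at E14, 13.6, 16.4, 14.2, 12.0 and 23.2 CPM at E18 and 9.13, 2.22, 5.72, 8.705 and 7.001 CPM at P7, with log2 fold changes of −0.67 (SE 0.245, adjusted p = 0.0148) and −1.28 (SE 0.254, adjusted p = 2.4e-05), and the first of these had an adjusted p of 0.0749 (edgeR) without WT replicate 1 at E14. No further fall was called, with 7.28, 11.3, 7.50, 10.5 and 7.20 CPM at P35, 10.01, 10.6, 5.40, 12.3 and 8.75 CPM at P70 and a log2 fold change from P7 to P35 of 0.42 (SE 0.255, adjusted p = 0.146). *Dlx6* was the only *Dlx* gene here whose mean was higher at P70 (9.405 ± 2.57 CPM, SD, n = 5) than at P7 (6.55 ± 2.78 CPM), also without WT replicate 2 at P7 (7.64 ± 1.58 CPM, SD, n = 4), and this difference was not tested.

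Both medial ganglionic eminence factors fell at each of the first 3 steps. *Lhx6* was at 154, 114, 91.5, 82.0 and 56.2 CPM at E14, a wide spread in which the 2 lowest libraries lay within the E18 range of 50.6, 53.3, 62.0, 73.2 and 83.2 CPM. At P7 it was 34.7, 18.4, 38.1, 36.2 and 39.4 CPM, where replicate 2 was the lowest by a wide gap and the other 4 lay within 34.7 to 39.4 CPM. The P35 and P70 libraries lay within 15.7 to 21.6 CPM in WT. Its log2 fold changes were −0.63 (SE 0.178, adjusted p = 0.00206), −0.95 (SE 0.181, adjusted p = 1.17e-05) and −0.94 (SE 0.185, adjusted p = 2e-05) over the first 3 steps.

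*Sox6* had its largest step from E14 to E18. It was at 108, 92.0, 101, 88.6 and 97.5 CPM at E14 and 35.1, 36.1, 34.9, 39.3 and 48.0 CPM at E18, a log2 fold change of −1.33 (SE 0.0799, adjusted p = 9.03e-18). It then fell further, with means of 29.5 ± 2.06 CPM (SD, n = 5) at P7, 20.9 ± 1.24 CPM at P35 and 18.6 ± 1.14 CPM at P70, without overlap from E14 through P35. The steps had log2 fold changes of −0.39 (SE 0.0798, adjusted p = 3.5e-05) and −0.49 (SE 0.0811, adjusted p = 8.08e-07), and that from P35 to P70 was −0.17 (SE 0.082, adjusted p = 0.412) with an unadjusted p of 0.0424. The coefficient of variation among 5 libraries ran from 2.54% to 16.4% over the 10 groups for *Sox6*, against 6.02% to 107% for *Nr2f2*. All 5 markers of radial glia and intermediate progenitors, cells of the cortex that also express *Sox6*, fell from E14 to E18 in WT, with a median log2 fold change of −1.22, where 34.1% of all genes fell, and their sum went from a mean of 979 to 415 CPM. Of 5 oligodendrocyte precursor markers, 4 rose over the same step and 0 fell, where 31.8% of all genes rose. The part of these cells in the fall of *Sox6* was not tested.

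Of the factors tied to the caudal ganglionic eminence, *Sp8* had its highest mean at E18. Its WT level was 28.4, 16.8, 34.7, 43.7 and 36.7 CPM at E14 and 62.5, 68.1, 32.6, 31.7 and 39.2 CPM at E18, overlapping ranges with a log2 fold change of 0.55 (SE 0.372, adjusted p = 0.194). At P7 it was 36.4, 2.34, 15.5, 26.8 and 21.6 CPM, a range from the lowest to the highest library of more than 10-fold that narrowed to between 15.5 and 36.4 CPM without replicate 2. The fall from E18 to P7 had a log2 fold change of −1.19 (SE 0.378, adjusted p = 0.00533), and −0.73 (adjusted p = 0.0579, edgeR) without the 3 libraries named above. From P7 to P35, where it was 7.22, 5.71, 10.1, 18.8 and 6.24 CPM, the log2 fold change was −1.09 (SE 0.391, adjusted p = 0.0128), with an adjusted p of 0.0833 (edgeR) without WT replicate 1 at P7, which held the most *Sp8* at that age in WT.

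*Nr2f2* had the highest coefficient of variation of the 9 genes at E14 in both genotypes and at E18 in WT, whereas at E18 in *Setd1a*+/- cortex it was 25.5%, below the 31.8% of *Dlx6*. At E14 it was 103, 145, 27.1, 13.6 and 20.3 CPM in WT and 19.6, 35.8, 173, 62.8 and 15.1 CPM in *Setd1a*+/- libraries, more than a 10-fold range within each genotype. At E18 it was 36.8, 28.7, 29.9, 124 and 18.4 CPM in WT, with replicate 4 far above the rest, and 27.99, 14.3, 19.4, 24.7 and 27.2 CPM in *Setd1a*+/- libraries. At P7 WT replicate 2 held 50.9 CPM against 17.2 to 20.5 CPM in the other 4 WT libraries. From P35 on, the spread was smaller in WT than at these ages, with 10.6 ± 0.638 CPM (SD, n = 5) at P35 and 9.298 ± 1.53 CPM at P70.

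For *Nr2f2*, single libraries decided whether a step passed the threshold. Its log2 fold change from E14 to E18 was −0.37 (SE 0.48, adjusted p = 0.505), 0.22 (adjusted p = 0.705, edgeR) without WT replicate 2 at E14 and −1.12 (adjusted p = 0.0406) without WT replicate 4 at E18. From E18 to P7 it was −0.92 (SE 0.487, adjusted p = 0.0929), and it passed the threshold without WT replicate 2 at P7 (adjusted p = 0.0195, edgeR) or without WT replicate 5 at E18 (adjusted p = 0.0454). From P7 to P35 it was −1.25 (SE 0.507, adjusted p = 0.0281), and it missed the threshold without WT replicate 2 at P7 (adjusted p = 0.164, edgeR) or without WT replicate 3 at P35 (adjusted p = 0.0514). Without the 3 libraries named above together, the step from E18 to P7 was called (adjusted p = 0.0113, edgeR) and that from P7 to P35 was not (adjusted p = 0.145).

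*Npas1* was the only one of the 9 genes called as higher at E18 than at E14. Its WT level was 8.25, 13.7, 7.12, 6.86 and 3.35 CPM at E14 and 17.2, 18.5, 22.7, 14.9 and 19.4 CPM at E18, with every E18 library above every E14 library and a log2 fold change of 1.24 (SE 0.21, adjusted p = 1.75e-06). At P7 it was 27.1, 13.6, 28.4, 26.8 and 29.7 CPM, where replicate 2 held about as much as the P35 libraries. The step from E18 to P7 had a log2 fold change of 0.44 (SE 0.202, adjusted p = 0.0528), and 0.59 (adjusted p = 0.00732, edgeR) without that library, while leaving out WT replicate 3 at E18 gave an adjusted p of 0.0347. It then fell to 13.8 ± 0.754 CPM (SD, n = 5) at P35, a log2 fold change of −0.87 (SE 0.205, adjusted p = 0.000254), and was at 13.5 ± 1.67 CPM at P70.

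Counted over the list, 6 of the 9 genes fell from E14 to E18 in WT cortex and 1 rose, where 34.1% of all genes tested fell and 31.8% rose. From E18 to P7, 7 fell and 0 rose by edgeR, with 33.4% of all genes falling and 33.9% rising, and DESeq2 and limma-voom each called 8, with *Npas1* as higher at P7 (adjusted p = 0.0333 and 0.0404). From P7 to P35, 7 fell and 0 rose by edgeR, with 34.3% falling and 32.6% rising, and DESeq2 called 7 and limma-voom 5. The median log2 fold change of the 9 genes was −0.66, −1.18 and −0.94 over these steps, against −0.01, 0.00 and −0.01 over all genes tested. From P35 to P70, 0 of the 9 were called by edgeR, 1 had an unadjusted p under 0.05, DESeq2 and limma-voom each called 0, and 0.527% of all genes fell and 0.533% rose.

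The *Setd1a*+/- mice are separate animals and gave the same sign for all 9 genes at each of the first 3 steps. From P35 to P70 the sign was the same for 4 of the 9. The share of equal signs over all genes was not counted. From E14 to E18, 3 genes fell and 1 rose, with 32.5% of all genes falling and 32% rising. The called genes were *Dlx2* (−0.90, SE 0.23, adjusted p = 0.000698), *Sox6* (−1.26, SE 0.0799, adjusted p = 1.81e-17), *Nr2f2* (−1.43, SE 0.492, adjusted p = 0.0102) and *Npas1* (1.75, SE 0.212, adjusted p = 1.21e-09). *Dlx1*, *Dlx5*, *Dlx6* and *Lhx6*, called in WT, had log2 fold changes of −0.42, −0.40, −0.31 and −0.34 with adjusted p of 0.0835, 0.119, 0.262 and 0.0882 (edgeR), and a difference of these steps between genotypes was tested only by the age by genotype interaction given further on. *Setd1a*+/- replicate 2 at E14 was the lowest of the 10 libraries of its age for 6 of the 9 genes, and without it *Dlx1* (adjusted p = 0.0454, edgeR) and *Lhx6* (adjusted p = 0.00911) were called as well. Without the 3 WT libraries named above, *Dlx1* (adjusted p = 0.0153, edgeR), *Dlx5* (adjusted p = 0.0421) and *Lhx6* (adjusted p = 0.0309) were called as lower at E18 in *Setd1a*+/- cortex, 7 genes in all. Without *Setd1a*+/- replicate 3 at E14, *Nr2f2* was not called and its log2 fold change was −0.55 (adjusted p = 0.291, edgeR).

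From E18 to P7, the same 7 genes fell in *Setd1a*+/- as in WT cortex, where 35% of all genes fell and 32.7% rose. *Npas1* again missed the threshold (0.40, SE 0.201, adjusted p = 0.0723) and passed it without *Setd1a*+/- replicate 5 at E18 (adjusted p = 0.0228, edgeR), as well as in DESeq2 (adjusted p = 0.0438) and limma-voom (adjusted p = 0.0197), each of which called 8 genes. From P7 to P35, 7 genes fell, 6 of them shared with WT, where 33.3% of all genes fell and 34.5% rose. *Dlx5* (−0.59, SE 0.244, adjusted p = 0.0294) took the place of *Nr2f2* (−0.79, SE 0.508, adjusted p = 0.168), and *Dlx5* missed the threshold when any 1 of *Setd1a*+/- replicates 2 and 5 at P7 or 1 and 5 at P35 was left out, with adjusted p from 0.0543 to 0.0888 (edgeR). From P35 to P70, 0 of the 9 were called by edgeR, DESeq2 or limma-voom, 0 had an unadjusted p under 0.05, and 1.47% of all genes fell and 1.51% rose. In all, 16 of the 21 calls in WT and of the 18 calls in *Setd1a*+/- cortex were shared, all in the same direction. The share of calls common to both genotypes was not counted over all genes. From E18 to P7, 10988 of the 16330 genes tested were called in WT and 11068 in *Setd1a*+/- cortex. Whether the sharing among the 9 genes exceeds that background therefore cannot be told from this count.

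**Figure D2:**
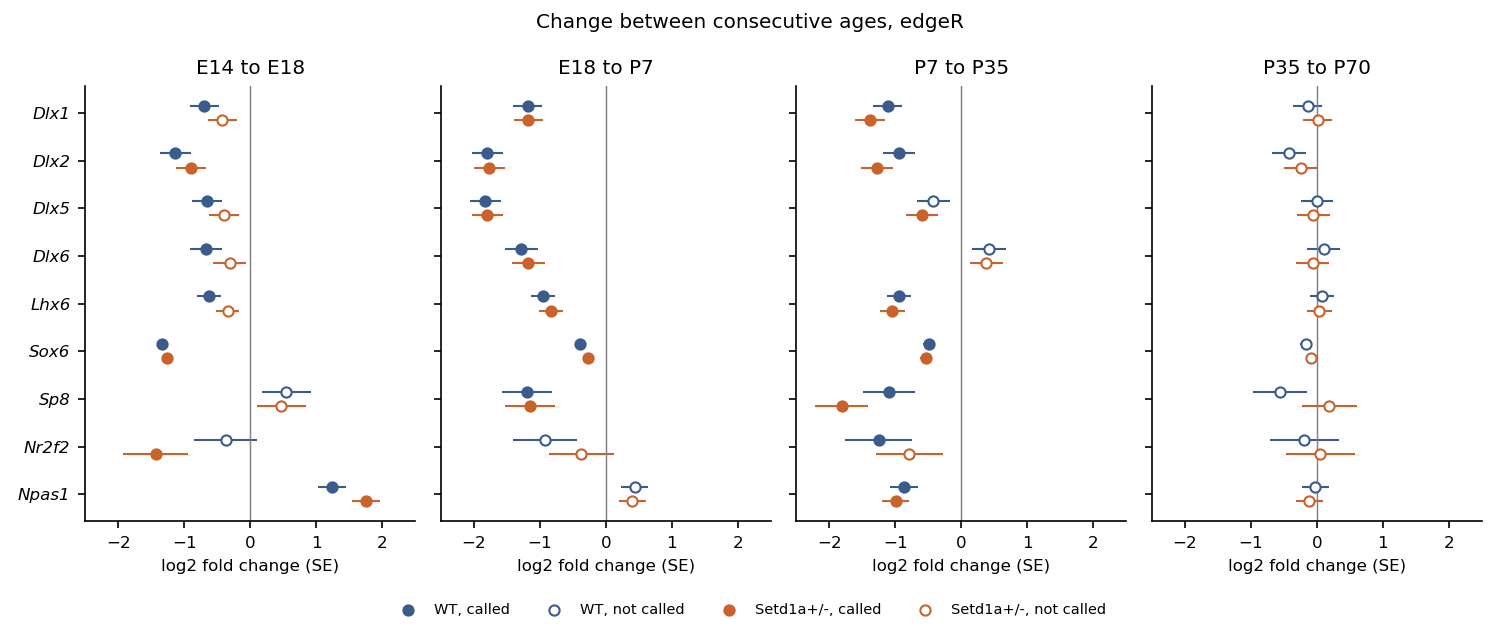
Log2 fold change with its standard error between consecutive ages for each gene, WT in blue and *Setd1a*+/- in orange, filled where the adjusted p of edgeR's test was under 0.05. The first 3 panels hold 7, 7 and 7 filled WT points and 4, 7 and 7 filled *Setd1a*+/- points, and the panel from P35 to P70 holds 0.

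Within the *Dlx* genes, *Dlx1* gained on *Dlx2* and *Dlx6* on *Dlx5* with age. Each ratio was taken within a library from RPKM, so that it does not depend on scaling between libraries, and consecutive ages were compared in WT by 2-sided exact permutation tests of 5 against 5 libraries, adjusted over 12 tests, with a smallest possible unadjusted p of 0.00794. The ratio of *Dlx1* to *Dlx2* was 1.63, 1.72, 1.37, 1.47 and 1.397 at E14, 2.09, 1.92, 1.99, 2.44 and 2.00 at E18 and 3.19, 3.69, 3.07, 2.82 and 3.46 at P7, with no overlap between these ages (exact permutation test, adjusted p = 0.0136 for each step). It was 2.60, 2.87, 2.65, 2.91 and 2.86 at P35 and 3.24, 3.25, 4.85, 3.00 and 3.22 at P70. The step down from P7 to P35 (adjusted p = 0.0423, exact permutation test) had adjusted p from 0.0571 to 0.0847 when any 1 of 9 of the 10 libraries was left out, whereas the step up to P70 had an adjusted p of 0.0136.

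The ratio of *Dlx5* to *Dlx6* fell and crossed 1. It was 2.06, 2.41, 2.13, 2.16 and 2.38 at E14 and 2.52, 2.40, 2.31, 2.19 and 1.87 at E18, which overlapped (exact permutation test, adjusted p = 0.873). It was 1.64, 1.19, 1.64, 1.46 and 1.45 at P7 and 0.865, 0.661, 0.888, 0.989 and 0.877 at P35, with an adjusted p of 0.0136 for each of these steps. At P70 it was 0.756, 0.82, 0.769, 0.824 and 0.754 (adjusted p = 0.338, exact permutation test, and 0.0212 without WT replicate 2 at P35), so that *Dlx6* exceeded *Dlx5* in RPKM in each WT library from P35 on. Of 12 striatal projection neuron markers, 10 rose and 1 fell from P7 to P35 in WT, where 32.6% of all genes rose and 34.3% fell. Their sum went from a mean of 119 to 416 CPM. From E18 to P7, when the ratio also fell, 2 of them rose and 8 fell, where 33.9% of all genes rose and 33.4% fell. The part of striatal tissue in the ratio was not tested. The sum of *Dlx1* and *Dlx2* over the sum of *Dlx5* and *Dlx6* had geometric means of 4.45, 3.91, 4.63, 2.28 and 1.95 in order of age, and its first 3 steps passed (adjusted p = 0.0238, 0.0136 and 0.0136, exact permutation test).

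In *Setd1a*+/- libraries 5 of the 12 ratio steps passed, against 9 of 12 in WT. Those that passed were *Dlx1* to *Dlx2* from E14 to E18 and from E18 to P7, *Dlx5* to *Dlx6* from E18 to P7 and from P7 to P35, and the ratio of sums from P7 to P35 (each with an adjusted p of 0.019, exact permutation test). Their log2 differences were 0.48, 0.58, −0.65, −0.94 and −1.22, beside 0.46, 0.64, −0.62, −0.79 and −1.02 in WT. Whether any ratio differed between genotypes was not tested. How often ratios of other gene pairs pass was not counted. Over the first 3 steps in WT, 10757, 10988 and 10938 of the 16330 genes tested were called. As shares of the summed RPKM of the 4 genes in WT, *Dlx2* went from 32.5% ± 1.99 (SD, n = 5) at E14 to 14.8% ± 1.27 at P70, and *Dlx6* from 5.71% ± 0.436 to 19.1% ± 2.69.

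**Figure D3:**
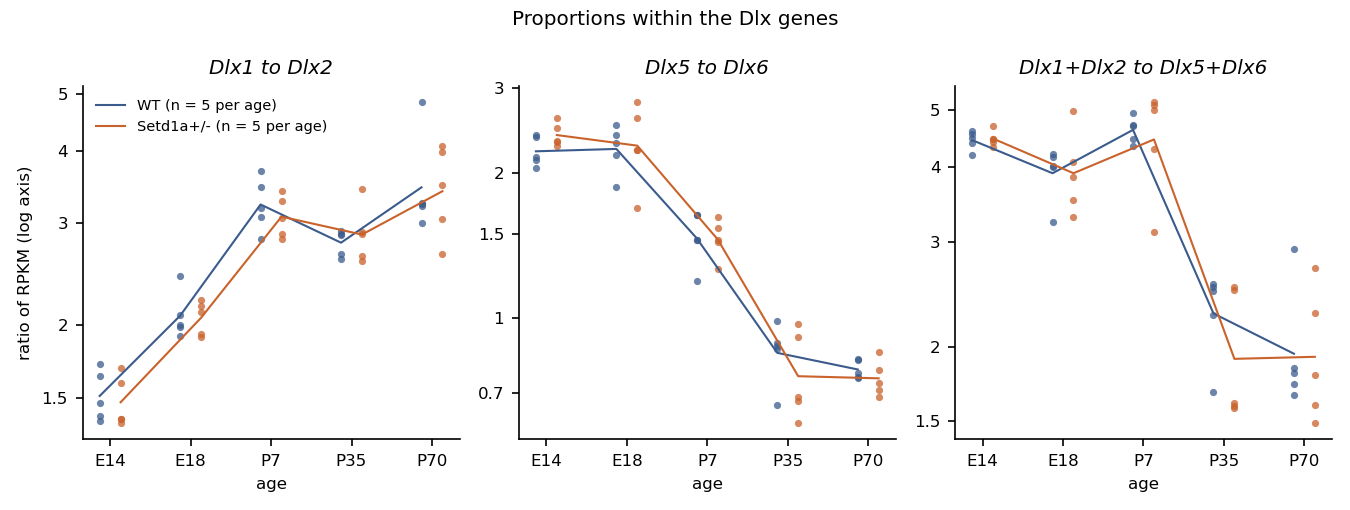
Ratio of RPKM (log axis) by age of *Dlx1* to *Dlx2*, *Dlx5* to *Dlx6* and the sum of the first pair to the sum of the second, with WT in blue, *Setd1a*+/- in orange, points for single libraries and lines through geometric means of 5. In WT the *Dlx5* to *Dlx6* ratio goes from 2.22 at E14 to 0.784 at P70.

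The order of the levels in RPKM changed as well. In WT at E14 it ran from *Dlx1* (90.8 ± 19.3, SD, n = 5) and *Dlx2* (59.7 ± 9.83) through *Dlx5* (23.4 ± 4.87), *Lhx6* (20.7 ± 7.67), *Dlx6* (10.6 ± 2.87), *Nr2f2* (7.15 ± 6.81), *Sp8* (7.03 ± 2.22) and *Sox6* (6.57 ± 0.512) to *Npas1* (2.61 ± 1.25). Of the neighbours in that order, *Dlx2* and *Dlx5* did not overlap, nor did *Sox6* and *Npas1*, and the other 6 pairs did. At P70 it ran from *Dlx1* (10.4 ± 1.57) through *Npas1* (4.50 ± 0.557), *Dlx6* (3.96 ± 1.08), *Lhx6* (3.81 ± 0.406), *Dlx5* (3.13 ± 0.946), *Dlx2* (3.06 ± 0.839), *Sp8* (1.43 ± 0.555) and *Sox6* (1.25 ± 0.0766) to *Nr2f2* (1.08 ± 0.177), and *Dlx1* was the only gene that did not overlap its neighbour. *Dlx2* moved from the second place to the sixth and *Npas1* from the last to the second.

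The levels in *Setd1a*+/- libraries were compared with those in WT at each age. *Dlx1* in *Setd1a*+/- libraries was 497, 325, 429, 436 and 483 CPM at E14 and 51.5, 49.7, 57.5, 73.3 and 44.9 CPM at P70. *Lhx6* was 94.9, 45.1, 103, 93.6 and 76.7 CPM at E14, where replicate 2 was the lowest of the 10 libraries, and 40.2, 35.3, 36.7, 33.9 and 37.9 CPM at P7. *Sox6*, the factor that acts after it, was 106, 66.5, 88.4, 96.9 and 90.2 CPM at E14, again lowest in replicate 2, and 19.7, 20.3, 20.7, 19.4 and 20.9 CPM at P70. *Npas1* was 5.47, 8.98, 8.84, 5.15 and 4.596 CPM at E14, 16.5, 21.2, 18.99, 24.04 and 30.7 CPM at E18 and 28.2, 27.8, 33.5, 27.6 and 30.4 CPM at P7. For each of these genes and ages the ranges of the genotypes overlapped.

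With age as a covariate, none of the 9 genes was called between genotypes, with 0 past the threshold in edgeR, DESeq2 and limma-voom and 0 at an unadjusted p under 0.05 in each, while 4.43% of all genes tested were called. The log2 fold change in *Setd1a*+/- cortex was −0.03 (SE 0.0955) for *Dlx1*, −0.02 (SE 0.104) for *Dlx2*, 0.01 (SE 0.103) for *Dlx5* and 0.04 (SE 0.11) for *Dlx6*. For *Lhx6* it was −0.02 (SE 0.0805), for *Sox6* 0.01 (SE 0.0366), for *Sp8* 0.01 (SE 0.171) and for *Npas1* 0.08 (SE 0.092). The standard error of *Sox6* was the smallest and those of *Sp8* and *Nr2f2* the widest. *Nr2f2* was furthest from 0, at −0.31 (SE 0.225, adjusted p = 0.602), and ran from −0.48 without *Setd1a*+/- replicate 3 at E14 to −0.15 without WT replicate 4 at E18, called in neither case. Adjusted p for the other 8 ran from 0.790 to 0.992 (edgeR).

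At single ages, 0 of the 45 gene by age differences were called, where, in order of age, 0.129%, 0.11%, 0.735%, 0% and 0.233% of all genes tested were called. DESeq2 and limma-voom called 0 as well, and of their unadjusted p 1 was under 0.05, in DESeq2 at E18. The WT and *Setd1a*+/- libraries overlapped in all 45 cases, whereas those of 0.784% of all genes at E14, 2.22% at E18 and at P7, 2.25% at P35 and 1.79% at P70 did not. *Nr2f2* at E18 was the only difference with an unadjusted p under 0.05, at a log2 fold change of −1.07 (SE 0.489, adjusted p = 0.394) with an unadjusted p of 0.0348 (edgeR), and 11.4% of all genes had one at that age. With WT replicate 4 left out, the E18 mean in WT was 28.4 ± 7.61 CPM (SD, n = 4), against 22.7 ± 5.78 CPM (SD, n = 5) in *Setd1a*+/- libraries and 47.5 ± 43.2 CPM (SD, n = 5) with all WT libraries. The 3 libraries with the most *Nr2f2* at E18, WT replicates 1, 3 and 4, also had the 3 highest sums of endothelial and mural cell markers and of meningeal fibroblast markers. The 7 endothelial and mural cell markers summed to 313, 219, 459, 387 and 226 CPM in WT and 227, 187, 208, 251.7 and 209 CPM in *Setd1a*+/- libraries, with means of 321 and 216 CPM, and their part in the difference was not tested. Over the 9 genes the log2 fold changes ran from −0.27 to 0.17 at E14, from −1.07 to 0.27 at E18, from −0.52 to 0.23 at P7, from −0.59 to 0.17 at P35 and from −0.08 to 0.18 at P70. The standard errors ran from 0.0781 to 0.519. Small differences in the more variable genes may have gone undetected at 5 mice a group. The joint test of the 4 age by genotype terms called 0 of the 9 by edgeR, DESeq2 or limma-voom, with 0 unadjusted p under 0.05 in each and unadjusted p from 0.215 to 0.885 in edgeR, and 0% of all genes.

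**Figure D4:**
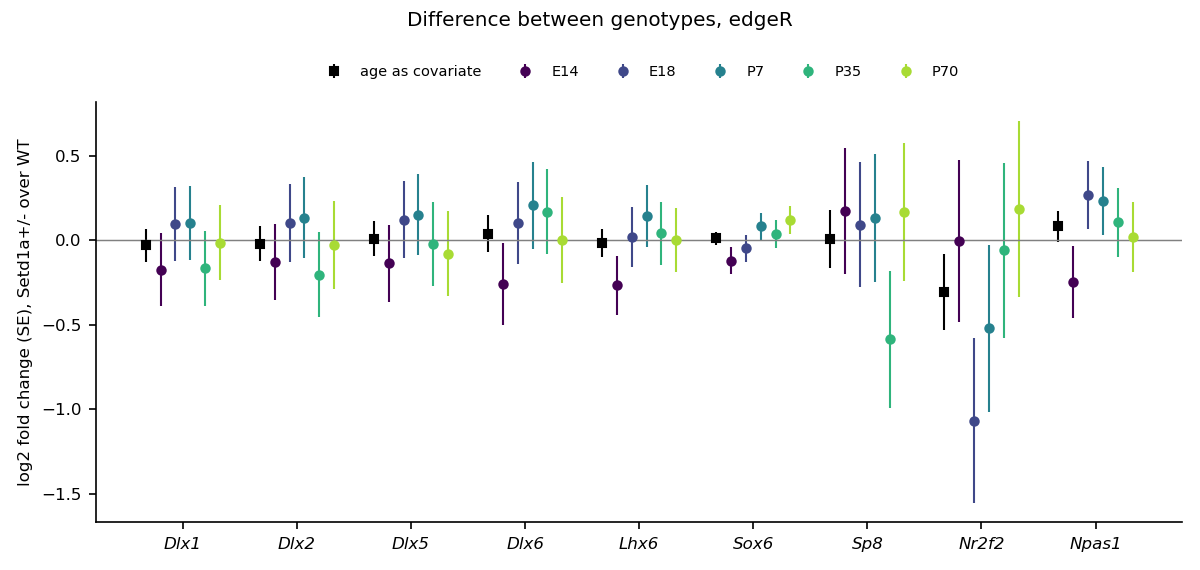
Log2 fold change of *Setd1a*+/- over WT with its standard error for each gene, with age as a covariate (black squares) and at each age (coloured points). The black squares lie between −0.31 and 0.08, and the point furthest from 0 is *Nr2f2* at E18, at −1.07.

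Some of these genes were highest or lowest in the same libraries as markers of neighbouring regions, at some ages and not at others. The 4 olfactory bulb markers *Tbx21*, *Cdhr1*, *Doc2g* and *Th* summed to 250.1, 22.0, 52.3, 108 and 126 CPM in WT and 36.5, 69.0, 34.7, 169.7 and 166 CPM in *Setd1a*+/- libraries at P7, with all 4 at 1 CPM or more on average. *Sp8* in the same libraries was 36.4, 2.34, 15.5, 26.8 and 21.6 CPM and 12.0, 21.7, 12.5, 28.1 and 38.1 CPM, and both were lowest in WT replicate 2 and shared the same 3 highest libraries. At P35 the marker sum was 23.5, 17.4, 52.9, 115 and 21.1 CPM in WT, and replicate 4, which held the most, also held the most *Sp8*, *Dlx1*, *Dlx2* and *Dlx5* of the 10 libraries. At P70 the sum was 79.9 CPM in WT replicate 4 and 79.9 CPM in *Setd1a*+/- replicate 4 and at most 31.3 CPM in the other 8, and these 2 libraries held the most *Sp8* and *Dlx1*. At E18 the 3 libraries with the most *Sp8*, WT replicates 2 and 1 and *Setd1a*+/- replicate 1, at 68.1, 62.5 and 62.8 CPM, also had the 3 highest marker sums, at 217, 232 and 184 CPM. For *Dlx1* and *Dlx2* the order before birth differed from that of the markers: at E18 *Setd1a*+/- replicate 2 held the most *Dlx1* and *Dlx2* of the 10 libraries, at 372 and 101.8 CPM, with the second lowest marker sum, at 29.3 CPM, and at E14 *Setd1a*+/- replicate 2 had the highest marker sum, at 47.1 CPM, and the least *Dlx1*, *Dlx2* and *Dlx5*. Without the replicates 4 the P70 mean of *Sp8* was 5.44 ± 0.97 CPM (SD, n = 4) in WT and 5.86 ± 1.09 CPM (SD, n = 4) in *Setd1a*+/- cortex. The part of olfactory bulb tissue in these values was not tested.

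The 12 striatal projection neuron markers, among them *Drd1* and *Adora2a*, of which 10 to 12 were at 1 CPM or more on average in each group, were compared with *Dlx6*. At P70 they summed to 554, 629.9, 160.1, 479 and 436 CPM in WT, where *Dlx6* was 10.01, 10.6, 5.40, 12.3 and 8.75 CPM, and replicate 3 was the lowest of the 10 libraries for both. At P35 *Dlx6* was highest in *Setd1a*+/- replicate 4 and lowest in *Setd1a*+/- replicate 1, as was the marker sum, at 630.0 and 240.3 CPM. At E18 the same held for *Setd1a*+/- replicates 4 and 5, with 24.7 and 10.9 CPM of *Dlx6* beside marker sums of 485 and 104 CPM. At P7 and P70 the highest libraries were not the same: at P7 WT replicate 1 had the most *Dlx6* of the 10, at 9.13 CPM, and the lowest marker sum, at 83.7 CPM, and at P70 WT replicate 4 had the most *Dlx6*, at 12.3 CPM, while the sum was highest in *Setd1a*+/- replicate 3, at 761 CPM. With the log2 marker sum as a covariate, the log2 fold change of *Dlx6* from P7 to P35 went from 0.42 to −0.44 in WT and from 0.38 to −0.44 in *Setd1a*+/- cortex, neither called, and that from E14 to E18 in WT went from −0.67 to −0.44 (adjusted p = 0.0547, edgeR). With the same covariate *Sp8* (−0.53, adjusted p = 0.354) and *Nr2f2* (−1.42, adjusted p = 0.0619) lost their call from P7 to P35 in WT and *Dlx5* gained one (−0.92, adjusted p = 0.00781). The slope on the marker sum in this fit comes from differences within groups. The mean sum in WT, however, went from 119 CPM at P7 to 416 CPM at P35. Change of the markers with age and the amount of striatal tissue cannot be told apart in these values.

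**Figure D5:**
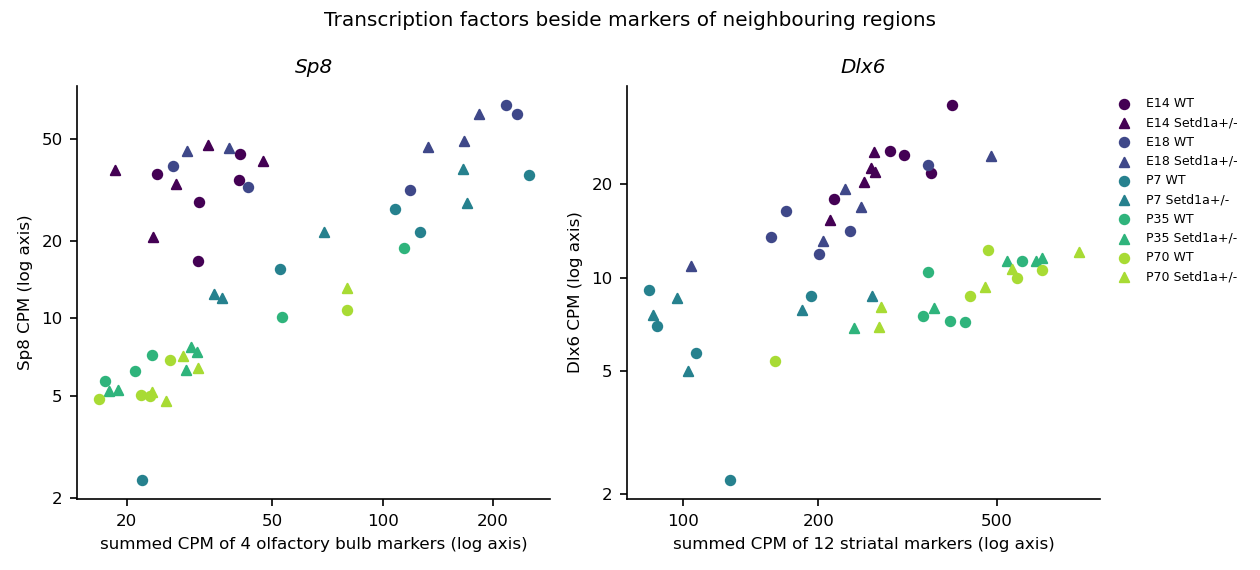
*Sp8* CPM against the summed CPM of 4 olfactory bulb markers and *Dlx6* CPM against the summed CPM of 12 striatal markers in each of the 50 libraries (log axes), coloured by age, with circles for WT and triangles for *Setd1a*+/-. At P70, replicate 4 of each genotype has marker sums of 79.9 and 79.9 CPM beside *Sp8* at 10.8 and 13.1 CPM.

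WT replicate 2 at P7 was the lowest of the 10 libraries of its age for 7 of the 9 genes and the highest for *Nr2f2*. In that library the 6 cortical excitatory neuron markers summed to 739 CPM, against 1231 to 1420.0 CPM in the other 9 libraries, the 5 radial glia and intermediate progenitor markers to 334 CPM, against 129.6 to 210.3 CPM, and the 4 olfactory bulb markers to 22.0 CPM. The 3 libraries with the most *Nr2f2* at P7 also had the 3 highest sums of the progenitor markers. They were WT replicates 2 and 1 and *Setd1a*+/- replicate 5, at 50.9, 20.5 and 19.2 CPM of *Nr2f2*. Only WT replicate 2 stood apart, with the other 9 libraries within 16.1 to 20.5 CPM. The 7 endothelial and mural cell markers summed to 289.9 CPM in WT replicate 2, within the 278.1 to 346.2 CPM of the others. The 4 GABA effector genes, among them *Gad1* and *Gad2*, which make the transmitter, and *Slc32a1*, which loads it into vesicles, summed to 735 CPM in it, within the 596 to 799 CPM of the others. *Pvalb*, which encodes the calcium buffer parvalbumin, was at 11.7 CPM in it and at no more than 0.224 CPM in the other 9. With it, the WT means at P7 were 133.5 CPM for *Dlx1*, 22.5 for *Dlx2*, 33.3 for *Lhx6*, 25.1 for *Npas1* and 25.1 for *Nr2f2*, and without it 157.4, 26.7, 37.1, 28.01 and 18.7 CPM.

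At E14 the highest libraries were the same for *Nr2f2* and *Lhx6*, and the others were not in the same order. The same 3 libraries, *Setd1a*+/- replicate 3 and WT replicates 1 and 2, were the highest of the 10 for both, with 173, 103 and 145 CPM of *Nr2f2* and 103, 154 and 114 CPM of *Lhx6*. *Setd1a*+/- replicate 2, the lowest for *Lhx6* at 45.1 CPM, was the fifth highest for *Nr2f2* at 35.8 CPM, and *Setd1a*+/- replicate 1, the fourth highest for *Lhx6* at 94.9 CPM, had 19.6 CPM of *Nr2f2*. The 3 highest libraries were also the highest for the summed GABA effector genes, at 497, 668 and 551 CPM, against 340.0 CPM in the lowest library. *Setd1a*+/- replicate 2, the lowest at E14 for 6 of the 9 genes, had the highest sums of 4 meningeal fibroblast markers (492 CPM, against at most 169 CPM in the other 9) and of 7 endothelial and mural cell markers (641 CPM, against at most 241 CPM). At E18, WT replicate 4, the highest for *Nr2f2*, was the lowest of the 10 for 4 of the 9 genes and for the cortical excitatory markers (1013 CPM, against 1270.3 to 2024 CPM). The part of these cells in the values of the 9 genes was not tested.

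The other genes of the lineage were counted from lists. Of 13 further regulators, among them *Gsx2*, *Nkx2-1*, *Lhx8* and *Sp9*, 8 fell and 3 rose from E14 to E18 in WT, 8 fell and 2 rose from E18 to P7, 7 fell and 1 rose from P7 to P35, and 0 were called from P35 to P70, where over all genes 34.1% fell and 31.8% rose at the first of these steps, 33.4% and 33.9% at the second, 34.3% and 32.6% at the third and 0.527% and 0.533% at the last. Their median log2 fold changes were −0.91, −0.79, −0.52 and −0.05, against −0.01, 0.00, −0.01 and 0.00 over all genes. *Nkx2-1*, which specifies the medial ganglionic eminence, fell by 3.66 on the log2 scale from E14 to E18 (adjusted p = 4.13e-08, edgeR), while *Maf*, which acts in postmitotic cells of that origin, rose by 0.53 (adjusted p = 0.00029). Between genotypes with age as a covariate, 0 of the 13 were called, where 4.43% of all genes were.

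The GABA effector genes mostly went the other way from P7 to P35. Their sum in WT was 503 ± 120.0 CPM (SD, n = 5) at E14, 714 ± 69.6 CPM at P7 and 1153 ± 116 CPM at P70, while the sum of the 9 transcription factors went from 1037 ± 218 to 306 ± 92.7 and 147 ± 17.6 CPM. From P7 to P35, when 32.6% of all genes rose, 3 of these 4 genes did, *Gad2* by 1.38 (adjusted p = 2.22e-10, edgeR), *Gad1* by 1.30 (adjusted p = 1.62e-10) and *Slc32a1* by 0.64 (adjusted p = 0.000787). Across birth, from E18 to P7, 2 of the 4 rose and 0 fell in WT, where 33.9% of all genes rose. In *Setd1a*+/- cortex 1 rose and 0 fell over that step, where 32.7% of all genes rose. None of the 4 was called from P35 to P70 in either genotype. From E14 to E18 *Gad2* fell by 0.95 on the log2 scale (adjusted p = 1.08e-06), as 6 of the 9 factors did, and *Gad1* rose by 0.33 (adjusted p = 0.0412).

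Of 13 interneuron subtype and migration genes, 10 rose and 1 fell from E14 to E18, 5 rose and 5 fell from E18 to P7, and 7 rose and 4 fell from P7 to P35 in WT. Against the shares of all genes that rose, 31.8%, 33.9% and 32.6%, and that fell, 34.1%, 33.4% and 34.3%, the counts from E18 to P7 were near the background. *Sst*, the peptide of *Lhx6*-lineage cells, rose at each of these steps, by 0.74 (adjusted p = 0.00864, edgeR), 0.59 (adjusted p = 0.0321) and 0.79 (adjusted p = 0.00454), while *Lhx6* fell at each. *Cxcr4*, a chemokine receptor of migrating interneurons, fell from E18 to P7 by 1.57 (adjusted p = 6.71e-11) and from P7 to P35 by 3.03 (adjusted p = 1.54e-17). Of these 13 genes, 1 was called between genotypes at P7, when 0.735% of all genes were, *Pvalb* (log2 fold change −4.49, adjusted p = 0.00609, edgeR), whose WT level there came from replicate 2 as given above, and 0 at the other ages.

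Among all tested genes outside the list, the course most like that of each factor was found as the smallest root mean square difference over the 50 libraries of log2 CPM centred on each gene's mean. *Sox1*, an SRY-box gene of neural progenitors, was the second nearest to *Dlx5* (0.345). The nearest to *Dlx2* were *Kif26a* (0.343) and *Cdca7* (0.376), and to *Dlx6* were *Rtl5* (0.383) and *Pou3f4* (0.384). *Lhx6* was nearest to *Brd3* (0.268) and *Ehmt1* (0.279), which encode broadly expressed chromatin factors, and *Sox6* to *H2afx* (0.194) and *Mad2l1* (0.196), which act in the DNA damage response and in mitosis. *Npas1* was nearest to *Ablim1* (0.213) and *Pcdha3* (0.237). *Sp8* and *Nr2f2* had no close match, with *Sall3* (0.544) and *Fgfbp3* (0.608) nearest to the first and *Fzd7* (0.662) and *Tmem102* (0.677) nearest to the second.

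Within the list, the closest courses by the same measure were those of *Dlx1* and *Dlx5* (0.345) and of *Lhx6* and *Sox6* (0.429). The neighbours *Dlx1* and *Dlx2* were at 0.465 and *Dlx5* and *Dlx6* at 0.7099, so that *Dlx5* was closer to *Dlx1* on another chromosome than to its own neighbour. *Nr2f2* and *Sp8* were at 1.24, and *Dlx2* and *Npas1* were the furthest apart, at 2.06. These distances describe libraries that share age, dissection and sequencing, and were not tested.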

How the data were processed

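RNA from 50 frontal cortex samples, 1 per mouse, was sequenced by the authors as read pairs, trimmed with Trimmomatic, checked with FastQC, aligned to GRCm38 with STAR and counted on exons of Ensembl release 102 genes with featureCounts 1.4.6-p2, without strand and with a fragment counted for each gene it overlapped. The deposited values are raw counts per gene and library, with no normalisation. Groups and replicate numbers came from the sample labels, and gene types and symbols from GENCODE vM21, which holds 55141 of the 55487 genes. Protein-coding genes that passed edgeR's filterByExpr over the 10 groups (minimum count 10) were kept. Library sizes were normalised by TMM, and edgeR 4.0.16 in R 4.3.3 fitted quasi-likelihood models, in place of the study's limma since the files hold counts. The genotype effect was fitted with age as a covariate, the interaction as a joint test of 4 terms, and single ages and consecutive ages from a fit of 10 group means over all 50 libraries. Calls are Benjamini-Hochberg adjusted p under 0.05. CPM and RPKM were computed from the TMM-scaled counts, and log2 CPM used a prior count of 2. Ratios were compared with exact permutation tests in SciPy 1.17.1. Figures were drawn with matplotlib 3.10.9.

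All 9 genes are named, with the 2 genes nearest to each by root mean square difference and the called members of the lists of other regulators, GABA effector genes, subtype genes and regional markers. Which called list genes to name was chosen after their values were seen. The list of 9 genes and the other lists were chosen with earlier results of these data known. Alternatives were DESeq2 1.42.0, limma-voom (limma 3.58.1), DESeq2 size factors, library size only, a filter of at least 10 CPM in 5 libraries, no filter, genes of all types, RNA integrity or the striatal marker sum as a covariate, a block for replicate numbers, a threshold of 0.01, leaving out each library and leaving out 3 libraries together. For ratios they were counts plus 0.5 and both genotypes together (100000 permutations). No pair of libraries held identical counts, and over 100 pairs of replicates the chi-square per gene was at least 4.88, so none was counted as a duplicate. The fits were tested on simulated counts with known changes. Some genes that the naming rule selects are not reported here. The proteome of the study was not analysed here.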

Additional observations from a re-analysis of the deposited data

Results flagged for a closer look

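In 11 of 90 groups of 5 libraries (9 genes in 10 groups), 1 library lay far from the other 4, with a gap to the nearest of them above 0.71 of the group's whole range. Chance alone gives such a gap in about 1 in 20 groups, and the genes and libraries are not independent. WT replicate 2 at P7 was such a library for 3 genes, the lowest for *Lhx6* (18.4 CPM against 34.7 to 39.4 CPM in the other 4) and *Npas1* (13.6 CPM against 26.8 to 29.7 CPM) and the highest for *Nr2f2* (50.9 CPM against 17.2 to 20.5 CPM). WT replicate 4 at P35 was the highest for *Dlx1* (87.4 CPM against 51.6 to 59.0 CPM) and *Dlx5* (9.85 CPM against 6.00 to 7.10 CPM), and its olfactory bulb markers summed to 115 CPM against at most 52.9 CPM in the other WT libraries. WT replicate 1 at P35 was the highest for *Sox6* (23.1 CPM against 20.1 to 20.9 CPM). *Sp8* was highest in *Setd1a*+/- replicate 1 at E18 (62.8 CPM against 44.8 to 49.3 CPM) and in *Setd1a*+/- replicate 4 at P70 (13.1 CPM against 4.76 to 7.10 CPM). *Nr2f2* was highest in WT replicate 4 at E18 (124 CPM against 18.4 to 36.8 CPM), in WT replicate 4 at P70 (11.9 CPM against 7.89 to 9.02 CPM) and in *Setd1a*+/- replicate 2 at P70 (14.2 CPM against 9.39 to 9.97 CPM), and the last of these also held the most endothelial and mural cell markers of the 10 libraries, 354 CPM.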

How the results depend on the processing

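Tests, scalings, filters and covariates were changed 1 at a time. The count of genes called moved by over 1.5 times in 1 case: from E14 to E18 in *Setd1a*+/- cortex it was 4, and 7 without the 3 WT libraries that stood apart, with *Dlx1*, *Dlx5* and *Lhx6* added. Without these 3 libraries *Npas1* was called as higher at P7 than at E18 in WT (adjusted p = 0.00287, edgeR) and *Setd1a*+/- cortex (adjusted p = 0.0201), and *Dlx5* as lower at P35 than at P7 in WT (adjusted p = 0.00305). The count called between genotypes was 0 under every alternative run, with age as a covariate, at each age and for the interaction. The labels do not say whether same-numbered libraries were pairs. The correlation of their deviations was −0.207 to 0.460 over 25 pairs, 9 of them over 0.1, and 7 libraries were closest to their own number, which does not settle it. With the replicate number as a block the count called between genotypes was again 0. The sign of the genotype effect with age as a covariate, near 0 for most genes, turned with limma-voom for *Dlx1* (0.00621), *Dlx2* (0.0431) and *Sox6* (−0.0049), with the block for *Dlx2* (0.00755) and *Lhx6* (0.00434), with the striatal covariate for *Dlx5* (−0.00156), and without the 3 libraries for *Dlx5* (−0.0496), *Dlx6* (−0.0192) and *Sp8* (−0.0126). With single libraries left out it ran from −0.0759 to 0.00538 for *Dlx1*, −0.0694 to 0.0133 for *Dlx2*, −0.0376 to 0.0398 for *Dlx5*, −0.00218 to 0.0788 for *Dlx6*, −0.0468 to 0.0319 for *Lhx6* and −0.0475 to 0.0853 for *Sp8*. Of the 45 differences at single ages, 12 changed sign under an alternative and 20 without some library, and 0 were called under any. The step of *Nr2f2* from E14 to E18 in WT ran from −1.12 to 0.22 without single libraries, and the log2 ratio step of *Dlx5* to *Dlx6* from E14 to E18 from −0.0247 to 0.0821, or −0.0283 with both genotypes together. The step of *Dlx6* from P7 to P35 turned to −0.44 in WT and −0.44 in *Setd1a*+/- cortex with the striatal covariate, and limma-voom lost the P7 to P35 calls of *Sp8* (adjusted p = 0.194) and *Nr2f2* (adjusted p = 0.134) in WT and *Dlx5* (adjusted p = 0.115) in *Setd1a*+/- cortex. From E14 to E18 in *Setd1a*+/- cortex limma-voom lost the call of *Nr2f2* (−0.89, adjusted p = 0.105) and gained that of *Dlx5* (−0.42, adjusted p = 0.0282). *Npas1* was called as higher at P7 than at E18 under 5 alternatives in each genotype, DESeq2 and limma-voom among them. With counts plus 0.5, the step of the ratio of sums from E14 to E18 missed the threshold (adjusted p = 0.0952, exact permutation test). The cause of these changes was not tested. The lowest count of any of the 9 genes in a library was 95.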

Other observations

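Non-coding transcripts beside the *Dlx* genes were tested in a fit of the 23264 genes of every type that passed the same filter. *Dlx1as*, transcribed across *Dlx1* from the other strand, was at 158.2, 116, 109, 119 and 86.8 CPM in WT at E14 and 14.2, 15.1, 14.1, 17.6 and 13.7 CPM at P70. It fell from E14 to E18 in WT by a log2 fold change of −0.73 (SE 0.196, adjusted p = 0.00145), from E18 to P7 by −1.14 (SE 0.2, adjusted p = 3.17e-06) and from P7 to P35 by −0.98 (SE 0.205, adjusted p = 5.36e-05) (edgeR). *Dlx6os1*, also known as Evf2 and transcribed through the *Dlx5* and *Dlx6* interval, went from 153 ± 29.5 CPM (SD, n = 5) at E14 to 26.3 ± 13.7 CPM at P7 and 21.2 ± 1.84 CPM at P70. Its first 2 steps had log2 fold changes of −1.04 (SE 0.236, adjusted p = 0.000212) and −1.46 (SE 0.242, adjusted p = 1.15e-06), and that from P7 to P35, at −0.21 (SE 0.242, adjusted p = 0.469), was not called. *Dlx6os2*, which shares 4.38% of the exonic bases of *Dlx6*, was at no more than 9.96 CPM in any WT library, and like *Dlx6* its log2 fold change from P7 to P35 in WT was positive, at 0.59 (SE 0.29, adjusted p = 0.0768). With age as a covariate, none of the 3 was called between genotypes, with log2 fold changes of −0.01 (SE 0.0883, adjusted p = 0.979), 0.09 (SE 0.106, adjusted p = 0.832) and 0.04 (SE 0.123, adjusted p = 0.947) (edgeR). Since strand was not used in counting, reads from *Dlx1* and *Dlx1as* on their shared bases cannot be told apart.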
